A study of Arabidopsis thaliana with 9 samples.

Results

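The Aux/IAA repressors of Arabidopsis thaliana, from IAA1 to IAA34, and 4 auxin-conjugating GH3 enzymes (GH3.1, GH3.3, GH3.5 and GH3.6) were followed across 9 seedling libraries. The 33 genes, 29 Aux/IAA and 4 GH3, were taken by a list of AGI locus identifiers that sets no threshold on a measured value, although it was drawn up with earlier results of these data known, and all 33 were found among the 33323 identifiers counted. After a filter on low counts 29 of the 33 could be tested, namely 25 Aux/IAA genes and all 4 GH3 genes. IAA15, IAA31, IAA33 and IAA34 fell below that filter and are given by level only. The filter needs reads in as few as 3 libraries, so a gene that was high in 1 group alone could pass through that group.

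Auxin acts on transcription by removing repressors. Aux/IAA proteins hold auxin response factors (ARF) silent together with TOPLESS co-repressors, and auxin glues them through a short degron to the TIR1/AFB receptors, F-box proteins that send them to the proteasome. The freed ARF proteins then switch on Aux/IAA, GH3 and SAUR genes, so that new repressor and new enzyme close a feedback loop. GH3 enzymes of this group join auxin to amino acids and thereby lower its active pool, and in seedlings the loop is known for root growth, lateral root initiation, hypocotyl elongation and the response to light.

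Libraries came from 3 genotypes with 3 libraries each, all from seedlings 2 weeks old and grown on MS medium, with no stress treatment named. These were pca31, which the series describes as suppressing atrzf1 and links to rhamnogalacturonan lyase 1 (RGL1), an enzyme of pectin breakdown; atrzf1, a mutant of AtRZF1, a RING-type E3 ubiquitin ligase of the dehydration response; and WT, the Col-0 accession. The study asked whether AtRZF1 and RGL1 act in opposite directions on a set of target genes. The labels name no allele, no number of independent lines and no separate plant cultures behind the 3 libraries of each genotype. A p-value here therefore reflects how these samples scatter, and that scatter may be technical. The AtRZF1 transcript itself ranged from 1.16 to 3.18 CPM in the pca31 libraries and from 2.11 to 4.6 CPM in those of atrzf1, below its WT range of 24 to 31 CPM. CPM is the read count divided by the TMM-scaled library total (the usual CPM unit), and since the kit reads only the 3' end of a transcript, CPM needs no correction for gene length when genes are compared.

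Each library held 22478803 to 33073605 counts, and a count of 0 allowed up to 3 counts, or 0.0867 to 0.131 CPM. Libraries resembled each other by the replicate number in their titles more than by genotype, with Spearman correlations across genes of 0.965 to 0.982 within a number and 0.855 to 0.963 within a genotype. The labels do not say what a number marks. The count columns carry numbers 1 and 2 in their headings and none for the third libraries, whose number 3 comes from the titles alone. The 18 root markers of a fixed list summed to 1620 to 2360 CPM in the number 3 libraries, against 35.5 to 74.3 CPM in number 2 and 77.8 to 171 CPM in number 1. PHT1;1, a root phosphate transporter, ranged from 51.5 to 79.3 CPM in number 3 and from 0 to 0.178 CPM in numbers 1 and 2 together. PYK10, a root glucosidase, had 1340 to 1850 CPM in number 3 and 17.3 to 153 CPM elsewhere, and CASP1 of the root endodermis had 28.3 to 53.4 CPM in number 3 and 2.93 to 5.79 CPM elsewhere. In the number 1 and 2 libraries 5 to 12 of the 18 markers were at 0 (in number 3, 0 to 3), although all 9 are labelled as seedlings. The 9 leaf markers of light harvesting and carbon fixation summed to 20900 to 26700 CPM in number 3, against 43100 to 68100 CPM in number 2 and 67300 to 77500 CPM in number 1. In RNA from whole samples, fewer cells of a type and less RNA per cell cannot be told apart.

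The degron is what makes an Aux/IAA protein sensitive to auxin, and the coding sequences show which members carry it. Its core, Gly-Trp-Pro-Pro, was sought in frame in the RefSeq coding sequences (TAIR10.1) as the codons GGN, TGG, CCN and CCN in a row on the coding strand, and 23 of the 29 Aux/IAA genes held it. The stretches below, 30 bases each with these codons in capitals, are written 5′ to 3′ on the coding strand and show how closely related members share the stretch.
IAA1: caaatcgttGGATGGCCTCCAgtgagatct
IAA2: caaatcgttGGTTGGCCACCAgtgagatct
IAA3: cagattgttGGATGGCCACCAgttagatct
IAA4: cagattgttGGATGGCCACCAgttagatct
IAA7: caagtggtgGGATGGCCACCTgtgaggaac
IAA14: caagtggtgGGTTGGCCACCGgtgaggaac
IAA17: caagttgtgGGATGGCCACCGgtgagatca
IAA27: caagtggtgGGATGGCCACCAataagatca
IAA29: gaagttgttGGATGGCCACCAgtaaaaaca
IAA9: caaattgtcGGTTGGCCTCCAgtgagatcc
IAA10: gttgctgtaGGTTGGCCGCCTctacggact
IAA15: cagttggtgGGCTGGCCGCCGgtagcgaca
In TAIR10.1 they lie at chr4:8361436-8361465 (plus strand), chr3:8181387-8181416 (minus strand), chr1:1129019-1129048 (minus strand), chr5:17550740-17550769 (plus strand), chr3:8195568-8195597 (plus strand), chr4:8349478-8349507 (minus strand), chr1:1136938-1136967 (plus strand), chr4:14324654-14324683 (minus strand), chr4:15583942-15583971 (plus strand), chr5:26255104-26255133 (plus strand), chr1:1060328-1060357 (plus strand) and chr1:30222374-30222403 (minus strand), in coding exons of the plus or minus strand as marked. The IAA3 and IAA4 stretches did not differ, IAA1 and IAA2 differed at 2 of 30 bases, and so did IAA7 and IAA14, whereas IAA10 differed from IAA1 at 15. The 6 genes without these codons were IAA20, IAA30, IAA31, IAA32, IAA33 and IAA34.

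Promoters of 3 GH3 genes and 3 repressors described below are shown next, since auxin response factors are known to read the words TGTCTC and TGTCGG. Each is the 250 bases before the annotated gene start in RefSeq's TAIR10.1, 5′ to 3′ on the strand of the gene, with every TGTCTC or TGTCGG in capitals, also in the reverse complements GAGACA and CCGACA. The GH3 promoters come first, then those of IAA29 (no such word), IAA1 (both words) and IAA19 (TGTCTC repeated).
GH3.3: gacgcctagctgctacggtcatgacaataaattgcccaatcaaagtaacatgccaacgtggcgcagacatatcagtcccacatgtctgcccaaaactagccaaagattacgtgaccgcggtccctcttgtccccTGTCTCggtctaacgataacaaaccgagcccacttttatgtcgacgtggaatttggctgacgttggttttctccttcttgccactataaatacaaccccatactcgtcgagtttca
GH3.5: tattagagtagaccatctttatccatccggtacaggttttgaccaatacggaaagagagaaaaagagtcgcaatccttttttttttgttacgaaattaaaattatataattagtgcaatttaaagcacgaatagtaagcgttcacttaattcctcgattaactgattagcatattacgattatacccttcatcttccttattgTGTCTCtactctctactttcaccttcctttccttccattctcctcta
GH3.6: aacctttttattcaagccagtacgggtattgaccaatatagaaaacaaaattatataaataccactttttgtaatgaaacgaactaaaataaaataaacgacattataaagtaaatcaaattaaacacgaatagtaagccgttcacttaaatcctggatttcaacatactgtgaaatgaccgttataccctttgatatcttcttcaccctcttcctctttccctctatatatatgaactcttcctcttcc
IAA29: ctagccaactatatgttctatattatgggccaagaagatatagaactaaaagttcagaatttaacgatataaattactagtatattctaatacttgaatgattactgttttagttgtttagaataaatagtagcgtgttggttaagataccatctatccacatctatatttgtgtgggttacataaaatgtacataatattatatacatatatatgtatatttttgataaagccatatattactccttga
IAA1: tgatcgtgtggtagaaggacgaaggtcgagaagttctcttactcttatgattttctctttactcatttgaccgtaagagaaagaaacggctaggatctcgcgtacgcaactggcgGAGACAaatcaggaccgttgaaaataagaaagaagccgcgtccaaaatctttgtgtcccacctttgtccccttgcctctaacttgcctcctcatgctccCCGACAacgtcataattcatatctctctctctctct
IAA19: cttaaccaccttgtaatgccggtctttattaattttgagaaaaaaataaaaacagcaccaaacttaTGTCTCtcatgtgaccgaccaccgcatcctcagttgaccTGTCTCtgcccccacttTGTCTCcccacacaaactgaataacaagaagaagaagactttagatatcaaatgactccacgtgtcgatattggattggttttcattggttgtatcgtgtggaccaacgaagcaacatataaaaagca
They lie at chr2:9866563-9866812 (minus strand), chr4:13653329-13653578 (plus strand), chr5:22133689-22133938 (minus strand), chr4:15583082-15583331 (plus strand), chr4:8360746-8360995 (plus strand) and chr3:5263751-5264000 (plus strand). GH3.3 held TGTCTC 116 bases before the start and GH3.5 at 47 bases, while GH3.6 held none. IAA19 held TGTCTC at 184, 145 and 128 bases, and IAA1 held GAGACA at 135 bases and CCGACA at 36 bases. TGTCTC, searched on both strands, was in 9 of 29 Aux/IAA promoters (31%) and in 2 of 4 GH3 promoters, beside 10.9% of the 27443 protein-coding promoters of the same length. TGTCGG was in 6 of 29 Aux/IAA promoters (20.7%) and in 0 of 4 GH3 promoters, beside 4.16% of all promoters. Either word was in 15 of the 33 (45.5%) and in 14.7% of all. IAA1 and IAA5 held both words, and no match in a member's promoter overlapped another. These are matches of letters in a window, not known binding sites.

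Aux/IAA genes with the degron codons ranged over the widest span of levels. IAA9, a repressor with a long N-terminal part, was the most abundant member at 329 ± 34.1 CPM in pca31, 318 ± 61.5 CPM in atrzf1 and 278 ± 32.8 CPM in WT (SD, n = 3 each). Its close relative IAA8 averaged 196 ± 35.4 CPM in pca31, 204 ± 16.3 CPM in atrzf1 and 181 ± 10.3 CPM in WT. The ranges of the 2 genes did not meet over the 9 libraries, at 240 to 386 CPM for IAA9 and 161 to 231 CPM for IAA8, so IAA9 stood above IAA8 in each library. IAA7 (AXR2), known from auxin-resistant dwarfs, followed at 93 to 147 CPM over all libraries, below IAA8 in its whole range. IAA2 spread from 23.5 to 159 CPM and therefore overlapped the ranges of IAA7, of IAA16 (21.5 to 67.2 CPM) and of IAA13 (37.2 to 56.1 CPM). Neighbours in the middle of the order did not separate beyond their spread: IAA27 lay between 18.5 and 69.8 CPM, IAA4 between 19.4 and 48.8 CPM, IAA3 (SHY2) between 18 and 60.9 CPM and IAA17 (AXR3) between 15.8 and 77.5 CPM.

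The genes without the degron codons were all scarce. Their mean level over the 9 libraries was highest for IAA32 at 1.51 CPM, 5 of the 6 averaged below 1 CPM, and their median was 0.206 CPM. The 23 genes with the codons had a median of 22.3 CPM, 18 of them averaged above 5 CPM and 1 below 1 CPM. That 1 gene was IAA15, with 2 counts in library 2 of pca31 and none in the other 8. IAA5, which also holds the codons, averaged 1.26 CPM, below IAA32, so scarcity was not limited to genes without them. IAA31 had counts in 5 libraries, with 21 in pca31 library 3 as the highest, IAA34 had counts in 6 with a highest of 11 in pca31 library 1, and IAA33 in 4 with a highest of 7 in pca31 library 3. IAA20 and IAA30, long-lived proteins that also lack the degron, averaged 0.238 and 0.955 CPM over the 9 libraries. They share a stretch of 52 bases within the last 500 bases of their transcripts, the longest shared between members, so reads of this low-count pair may have been exchanged.

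**Figure D1:**
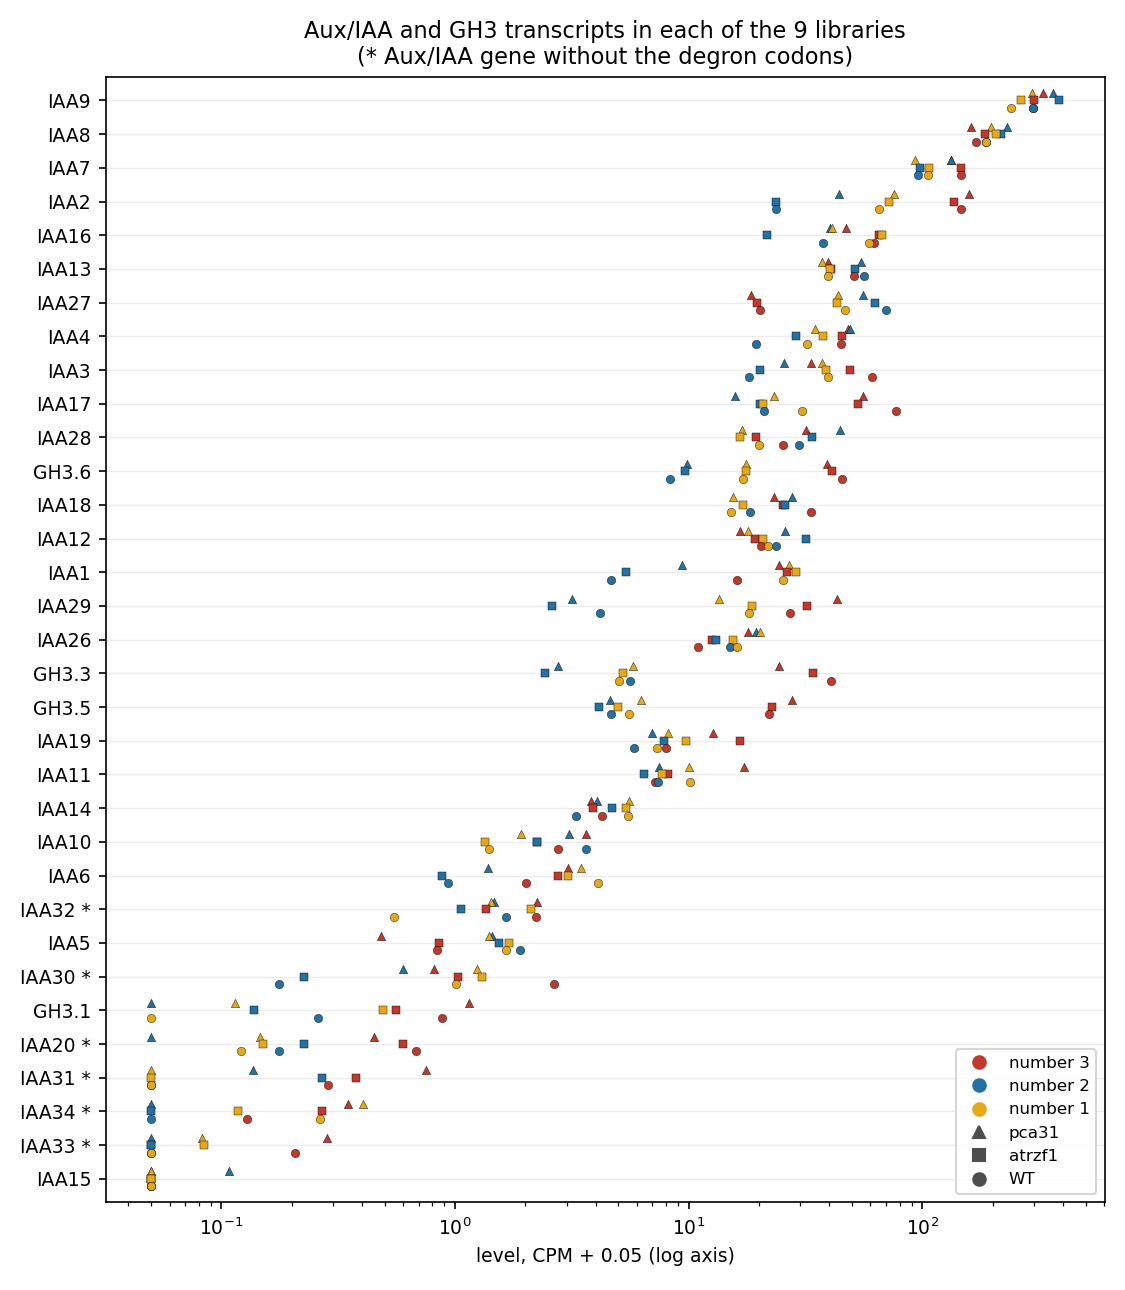
Level of each of the 33 members in every library, in CPM plus 0.05 on a log axis, ordered by the mean over 9 libraries. Colour gives the replicate number, marker shape the genotype, and stars mark Aux/IAA genes without the degron codons, whose means reach at most 1.51 CPM, while IAA9 leads at 240 to 386 CPM.

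No member passed the test between genotypes. With edgeR's quasi-likelihood test on genotype alone, 0 of the 29 tested members were called at an adjusted p of 0.05 in pca31 against WT, in pca31 against atrzf1 and in atrzf1 against WT, and the test for any difference among the genotypes also gave 0. At an unadjusted p under 0.05 the count was also 0 in pca31 against WT (0.919% of all genes), pca31 against atrzf1 (0.213%), atrzf1 against WT (0.556%) and for any difference (0.266%). DESeq2 and limma-voom called 0 members as well. Of 20672 genes 0.00484% were called in pca31 against WT, 0.00484% in pca31 against atrzf1, 0% in atrzf1 against WT and 0.00484% for any difference. The background of the edgeR fit on genotype alone was thus near 0 too. That fit leaves the differences between numbers in its error, so its lack of member calls does not bound small differences. Wherever 1 gene was called it was AT4G21620, lower in pca31, which is no member and is named because the count was 1. A fit with the replicate number as a block called 9 genes (0.0435%) in pca31 against WT, 1 gene (0.00484%) in pca31 against atrzf1, 7 genes (0.0339%) in atrzf1 against WT and 8 genes (0.0387%) for any difference, and again no member.

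The block narrowed the errors. The median standard error of the members' log2 fold changes in pca31 against WT was 0.22 with the block, against 0.47 on genotype alone. With the block the 95% interval lay within a log2 fold change of 1 either way for 20 of 29 members in pca31 against WT, 21 in pca31 against atrzf1 and 21 in atrzf1 against WT. On genotype alone it lay so for 8 members in pca31 against WT, 7 in pca31 against atrzf1 and 11 in atrzf1 against WT, so for most members a difference of that size could not be seen or bounded in that fit. The members' median log2 fold change was 0.12 in pca31 against WT (0.01 over all genes), 0.01 in pca31 against atrzf1 (0.00041 over all genes) and -0.03 in atrzf1 against WT (0.00124 over all genes), and no member exceeded 1 in size. The 7 floral organ markers, of which at most 3 were at 0 in a library, summed to 17 to 52.3 CPM in pca31 libraries, 19 to 64.5 CPM in atrzf1 libraries and 7.3 to 12.8 CPM in WT libraries. Their part in the members' values was not tested.

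Among the repressors, IAA26 (PAP1) is a protein named for its association with phytochrome, encoded by AT3G16500 at chr3:5612203-5614803 (minus strand). It had 20.2, 19.4 and 17.9 CPM in pca31 libraries 1, 2 and 3, against 15.4, 13.1 and 12.5 CPM in atrzf1 and 16.1, 15 and 10.9 CPM in WT. Every pca31 library was above every other library, with a log2 fold change of 0.45 ± 0.23 (SE) against WT and 0.49 ± 0.23 against atrzf1, neither past the threshold (edgeR adjusted p = 1 in both contrasts). With the block the values were 0.47 ± 0.17 and 0.49 ± 0.17, with unadjusted p of 0.0175 and 0.0128 and edgeR adjusted p of 0.505 and 0.956. IAA26 was the only tested member whose groups did not overlap, 1 of 29 in each pca31 contrast, beside 4.95% of all genes in pca31 against WT and 3.06% in pca31 against atrzf1. In atrzf1 against WT it was 0 of 29, beside 2.44% of all genes.

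IAA19 (MSG2), AT3G15540 at chr3:5264001-5265695 (plus strand), is a repressor of hypocotyl bending that is also known in the drought response together with IAA5 and IAA6. Of the tested members it had the largest difference of atrzf1 from WT. The atrzf1 libraries 1, 2 and 3 held 9.71, 7.8 and 16.5 CPM of it, against 7.25, 5.79 and 7.98 CPM in the WT libraries of the same numbers. The atrzf1 library was the higher of the pair within each number, by 0.42, 0.43 and 1.04 on the log2 scale in numbers 1, 2 and 3, although 7.8 CPM in atrzf1 lay below 7.98 CPM in WT. The fitted log2 fold change was 0.69 ± 0.36 (SE) and did not pass (edgeR adjusted p = 1), nor did 0.63 ± 0.20 with the block (unadjusted p = 0.00915, edgeR adjusted p = 1). IAA5 differed by -0.10 ± 0.62 and IAA6 by -0.08 ± 0.68 in the same contrast, again with an adjusted p of 1 in edgeR.

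Other members that kept a direction in all 3 numbers did not pass either. IAA17 was lower in pca31 than in WT by 0.40, 0.41 and 0.47 on the log2 scale in numbers 1, 2 and 3, with a blocked log2 fold change of -0.43 ± 0.17 and an edgeR adjusted p of 0.525. IAA1 was higher in pca31 than in WT by 0.0833, 0.996 and 0.608 in numbers 1, 2 and 3, with a blocked log2 fold change of 0.56 ± 0.22 and an edgeR adjusted p of 0.523. IAA2 had a blocked value of 0.42 ± 0.19 in the same contrast, with an edgeR adjusted p of 0.581, from within-number differences of 0.22, 0.89 and 0.11 in numbers 1, 2 and 3. IAA4 had 0.52 ± 0.23, with an edgeR adjusted p of 0.574, from 0.12, 1.33 and 0.0989. For IAA1, IAA2 and IAA4 the difference was largest in number 2, which holds pca31 library 2, a library that earlier results had set apart. IAA11 was higher in pca31 than in atrzf1 by 0.38, 0.21 and 1.07 in numbers 1, 2 and 3, and its blocked value of 0.59 ± 0.26 had an edgeR adjusted p of 0.956. A direction shared by all 3 numbers was found for 10 of 29 members in pca31 against WT (34.5%, beside 30.1% of all genes), for 11 in pca31 against atrzf1 (37.9%, beside 24%) and for 9 in atrzf1 against WT (31%, beside 25.3%). With the block, 5 of 29 members had an unadjusted p under 0.05 in pca31 against WT (8.44% of all genes), 3 in pca31 against atrzf1 (4.42%) and 2 in atrzf1 against WT (3.73%). Without pca31 library 2 the count in pca31 against WT was 3 of 30.

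No GH3 gene was called between genotypes. GH3.6 (DFL1), whose activation shortens seedlings in light, averaged 22.1 ± 15.1 CPM in pca31, 22.7 ± 16.3 CPM in atrzf1 and 23.5 ± 19.3 CPM in WT (SD, n = 3 each). GH3.5 (WES1), which also conjugates salicylic acid, averaged 12.8 ± 13 CPM in pca31, 10.5 ± 10.5 CPM in atrzf1 and 10.7 ± 9.8 CPM in WT. GH3.3 averaged 10.9 ± 11.7 CPM in pca31, 13.9 ± 17.6 CPM in atrzf1 and 17.1 ± 20.5 CPM in WT. In each genotype the number 3 library was the highest for these 3 genes. With the block the log2 fold change in pca31 against WT was -0.54 for GH3.3 (95% interval -1.1 to 0.01; edgeR adjusted p = 0.604), 0.17 for GH3.5 (-0.23 to 0.56; adjusted p = 0.834) and 0.02 for GH3.6 (-0.33 to 0.37; adjusted p = 0.983). In atrzf1 against WT it was -0.46 for GH3.3 (-1.01 to 0.10), -0.10 for GH3.5 (-0.49 to 0.30) and 0.03 for GH3.6 (-0.32 to 0.39), each with an edgeR adjusted p of 1. GH3.1 was scarce at 0.387 ± 0.615 CPM in pca31, 0.346 ± 0.226 CPM in atrzf1 and 0.345 ± 0.429 CPM in WT.

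**Figure D2:**
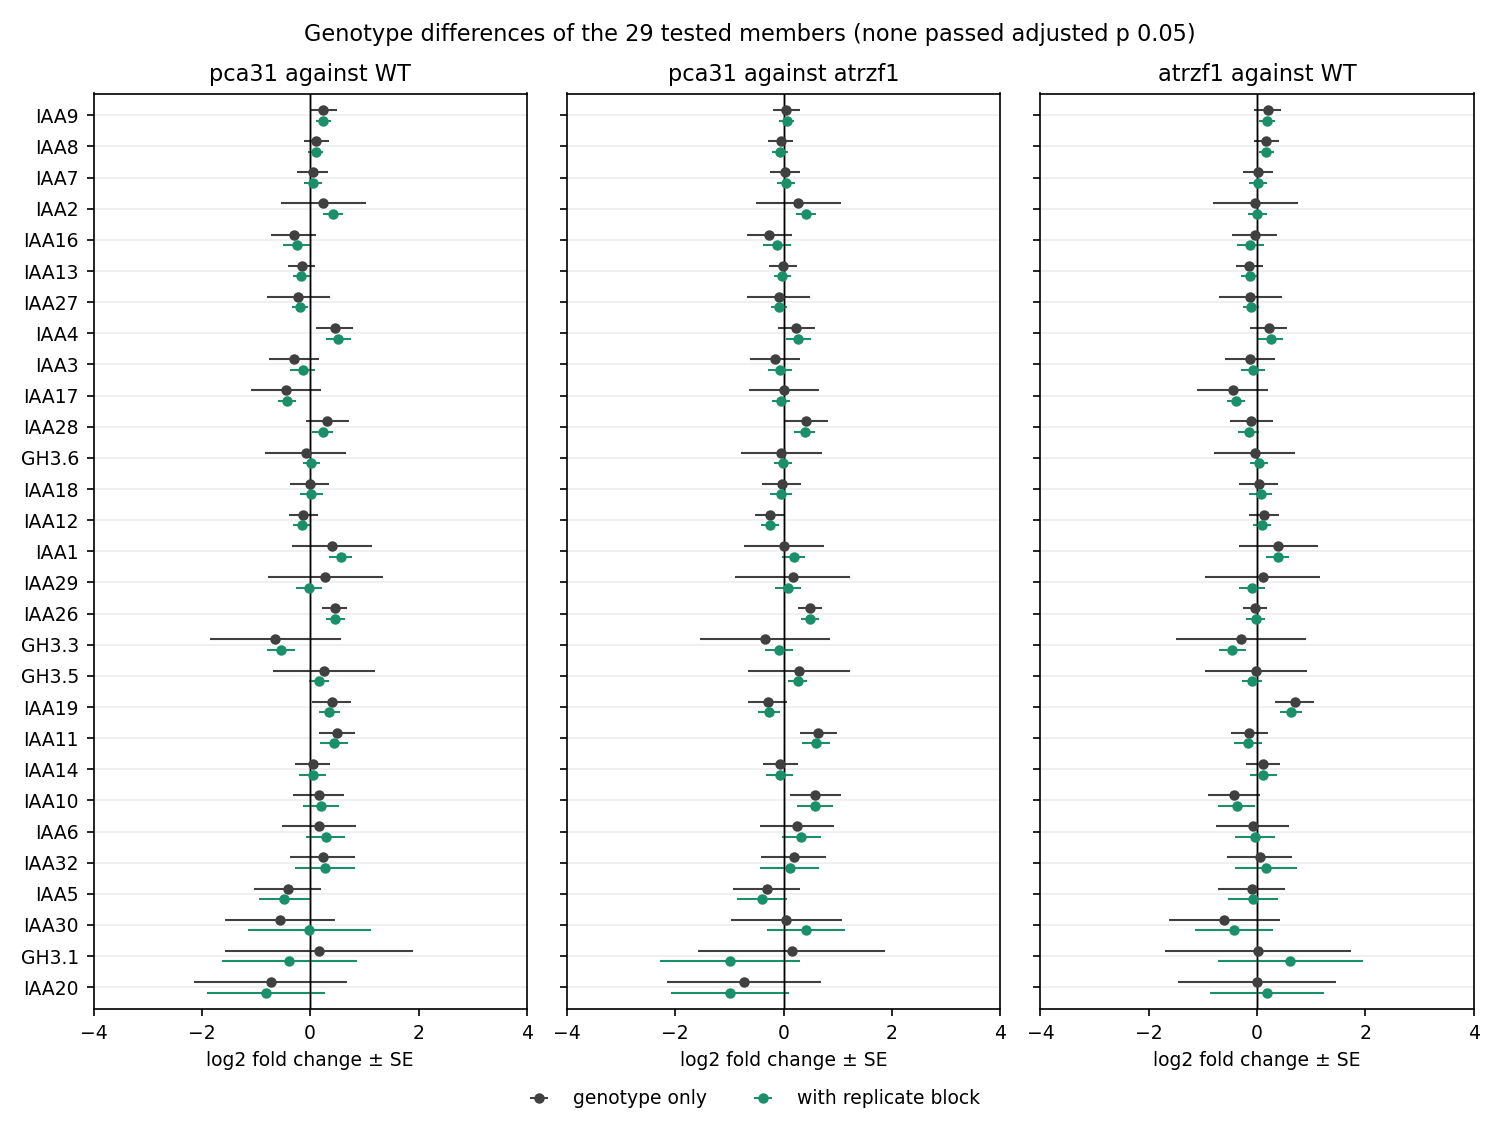
Log2 fold change with its standard error for the 29 tested members in pca31 against WT, pca31 against atrzf1 and atrzf1 against WT, on genotype alone (black) and with the replicate number as a block (green). None passed the threshold. The median standard error in pca31 against WT is 0.22 with the block and 0.47 on genotype alone.

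Between replicate numbers the same genes differed widely. For 27 of the 29 tested members the number means differed by a larger fold than the genotype means, the exceptions being IAA11 and IAA26. The same share over all genes was not computed, so this count is not read as particular to the members. In a fit of genotype and number, edgeR's quasi-likelihood test called 15 of 29 members (51.7%) in number 3 against numbers 1 and 2, of which 13 were higher and 2 lower. The 13 include IAA20, which passed the filter on low counts through number 3 alone and had to differ there. They also include GH3.1, which passed it mainly through number 3 and was called against neither number 1 alone nor number 2 alone. Of all genes 45.7% were called in this comparison, 23.6% higher and 22.1% lower, so the members' share lay near the background. The members' median log2 fold change was 0.49, beside 0.03 over all genes. All 4 GH3 genes were higher (median 2.60), while of 25 tested Aux/IAA genes 9 were higher and 2 lower (median 0.43). Groups did not overlap for 11 of 29 members (37.9%), 8 higher and 3 lower, beside 36.2% of all genes (18.9% higher and 17.3% lower). IAA20 and GH3.1 are among these 8 too. Of all genes 4871 were higher and 4566 lower, and 8042 were higher and 2528 lower where libraries were scaled by their totals alone. All 14 tested root markers were higher and 8 of 9 leaf markers and 6 of 7 floral markers were lower in number 3. Root markers such as CASP5 and EXPA7 (0 counts outside number 3), CASP2 (at most 3) and PHT1;1 (at most 5) passed the filter through number 3 alone. These had to differ there. Of the untested root markers, CASP4, IRT1 and WOX5 averaged higher in number 3. NRT2.1 went the other way (0.0131 CPM, against 0.338 in number 2 and 0.0892 in number 1). The part of all these markers in the members' differences was not tested.

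All 4 GH3 genes were called higher in number 3 against numbers 1 and 2. GH3.3, GH3.5 and GH3.6 were also called against number 1 alone and against number 2 alone, whereas GH3.1 was called against neither. In RefSeq's TAIR10.1 GH3.3 is AT2G23170 at chr2:9863855-9866562 (minus strand), GH3.5 is AT4G27260 at chr4:13653579-13656285 (plus strand), GH3.6 is AT5G54510 at chr5:22130964-22133688 (minus strand) and GH3.1 is AT2G14960 at chr2:6451319-6453797 (minus strand). GH3.3 had 24.4, 34.1 and 40.8 CPM in the number 3 libraries of pca31, atrzf1 and WT, against 2.72, 2.37 and 5.58 CPM in number 2 and 5.7, 5.17 and 4.98 CPM in number 1. Every number 3 library exceeded each of the other 6, with a fitted 7.6-fold difference, or a log2 fold change of 2.93 ± 0.21 (SE; edgeR adjusted p = 7.8e-07). GH3.5 had 27.7, 22.6 and 22 CPM in the number 3 libraries of pca31, atrzf1 and WT, against 4.54, 4.07 and 4.62 CPM in number 2 and 6.18, 4.94 and 5.51 CPM in number 1. Its groups did not overlap, and its log2 fold change was 2.28 ± 0.15 (edgeR adjusted p = 4.01e-07). GH3.6 had 39, 41 and 45.1 CPM in the number 3 libraries of pca31, atrzf1 and WT, against 9.74, 9.6 and 8.23 CPM in number 2 and 17.6, 17.6 and 17 CPM in number 1. It was ordered by number with no overlap, at a log2 fold change of 1.72 ± 0.13 for number 3 (edgeR adjusted p = 1.62e-06). GH3.5 and GH3.6 share a 42-base stretch near the 3' end, and how the counting treated reads that match both is not given in the sources used here. GH3.1 had 1.1, 0.51 and 0.826 CPM in the number 3 libraries of pca31, atrzf1 and WT and at most 0.44 CPM in the other 6, with a log2 fold change of 2.94 ± 1.04 (edgeR adjusted p = 0.0364) that kept its call in 3 of the 9 fits that leave out a library. GH3.1 reached 33, 14 and 21 counts in the number 3 libraries of pca31, atrzf1 and WT and 0 to 13 elsewhere, so it too passed the filter mainly through number 3.

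Among the repressors that rose in number 3, IAA29, a shade- and warmth-induced gene of hypocotyl elongation, had the largest log2 fold change among those with a mean over 5 CPM. In TAIR10.1 IAA29 is AT4G32280 at chr4:15583332-15584903 (plus strand), IAA2 is AT3G23030 at chr3:8180646-8182095 (minus strand) and IAA17 is AT1G04250 at chr1:1136078-1138663 (plus strand). IAA29 had 43.3, 31.9 and 27.2 CPM in the number 3 libraries of pca31, atrzf1 and WT, against 3.12, 2.54 and 4.11 CPM in number 2 and 13.4, 18.6 and 18 CPM in number 1. The 3 numbers did not overlap, and the log2 fold change of number 3 was 2.22 ± 0.20 (edgeR adjusted p = 5.32e-06). IAA2 had 159, 136 and 147 CPM in the number 3 libraries of pca31, atrzf1 and WT, against 44, 23.5 and 23.7 CPM in number 2 and 75.9, 72.1 and 65.2 CPM in number 1. It followed the same order by number, with a log2 fold change of 1.69 ± 0.15 for number 3 (edgeR adjusted p = 5.82e-06). IAA17, a repressor known from root hairs and gravitropism, had 55.9, 53.2 and 77.5 CPM in the number 3 libraries of pca31, atrzf1 and WT, against 15.8, 20.2 and 20.9 CPM in number 2 and 23.1, 20.7 and 30.4 CPM in number 1. Number 3 stood apart from both others, with a log2 fold change of 1.51 ± 0.14 (edgeR adjusted p = 5.82e-06).

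Smaller rises were called for IAA1 (0.75 ± 0.18), IAA3 (0.72 ± 0.19), IAA19 (0.67 ± 0.17), IAA18 (0.49 ± 0.18) and IAA7 (0.43 ± 0.14), all as log2 fold changes of number 3 with adjusted p between 0.00534 and 0.0414 in edgeR. Of the 9 fits that leave out a library, IAA18 kept its call in 2, IAA7 in 4, IAA3 in 7, and IAA1 and IAA19 in 8 each. IAA18 averaged 27.2 CPM in number 3, 23.9 CPM in number 2 and 15.9 CPM in number 1, and it was not called against number 2 alone (0.19 ± 0.21; edgeR adjusted p = 0.479). IAA20 was called at 2.51 ± 0.86 from levels of 0.399 to 0.629 CPM in number 3 and 0 to 0.175 CPM in the other 6 libraries (edgeR adjusted p = 0.0309). It had 12, 15 and 16 counts in the number 3 libraries of pca31, atrzf1 and WT and 0 to 4 elsewhere, so it passed the filter on low counts through number 3 alone and had to differ there. Its call was kept in 1 of the 9 fits that leave out a library and lost without the filter on low counts. IAA1 averaged 22.2 CPM in number 3 (16 to 26.3 CPM, n = 3), below its mean of 27 CPM in number 1 (25.3 to 28.8 CPM, n = 3), so that its call rests on the low number 2 libraries at 4.62 to 9.28 CPM. Set against number 1 alone, IAA1 differed by -0.31 ± 0.21 and was not called (edgeR adjusted p = 0.281). IAA3 was not called against number 1 alone either, at 0.30 ± 0.22 (edgeR adjusted p = 0.327).

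IAA27 (PAP2), AT4G29080 at chr4:14323296-14325361 (minus strand), went the other way. It had 18.5, 19.6 and 20.2 CPM in the number 3 libraries of pca31, atrzf1 and WT, against 55.5, 62.6 and 69.8 CPM in number 2 and 43.4, 42.9 and 46.6 CPM in number 1. Number 3 was low in every genotype with no overlap, and the log2 fold change was -1.44 ± 0.14 (edgeR adjusted p = 8.3e-06). IAA5 was also lower, at 0.432, 0.802 and 0.786 CPM in the number 3 libraries of pca31, atrzf1 and WT and 1.35 to 1.85 CPM in the other 6, with a log2 fold change of -1.23 ± 0.43 (edgeR adjusted p = 0.0332) that kept its call in 1 of 9 fits that leave out a library. IAA5 and IAA27 each overlap a gene on the opposite strand, as do IAA3, IAA9, IAA10, IAA11, IAA13 and IAA32, and the strand setting of the counting is not given in the sources used here. IAA34 overlaps a gene on its own strand.

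The 14 members that were tested and not called in number 3 include the most abundant repressors. IAA9 differed by 0.03 ± 0.12 and IAA8 by -0.25 ± 0.12 on the log2 scale, with edgeR adjusted p of 0.861 and 0.124. IAA12 (BODENLOS), the embryonic partner of ARF5, differed by -0.32 ± 0.15, its close relative IAA13 by -0.08 ± 0.13, and IAA14 (SLR), known for lateral root initiation, by -0.23 ± 0.22. IAA4 (0.49 ± 0.19), IAA16 (0.43 ± 0.21), IAA6 (0.44 ± 0.30), IAA10 (0.42 ± 0.29), IAA11 (0.35 ± 0.22), IAA26 (-0.27 ± 0.15), IAA28 (-0.02 ± 0.16), IAA30 (1.28 ± 0.61) and IAA32 (0.52 ± 0.47) made up the rest, with edgeR adjusted p of 0.0536 or more.

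**Figure D3:**
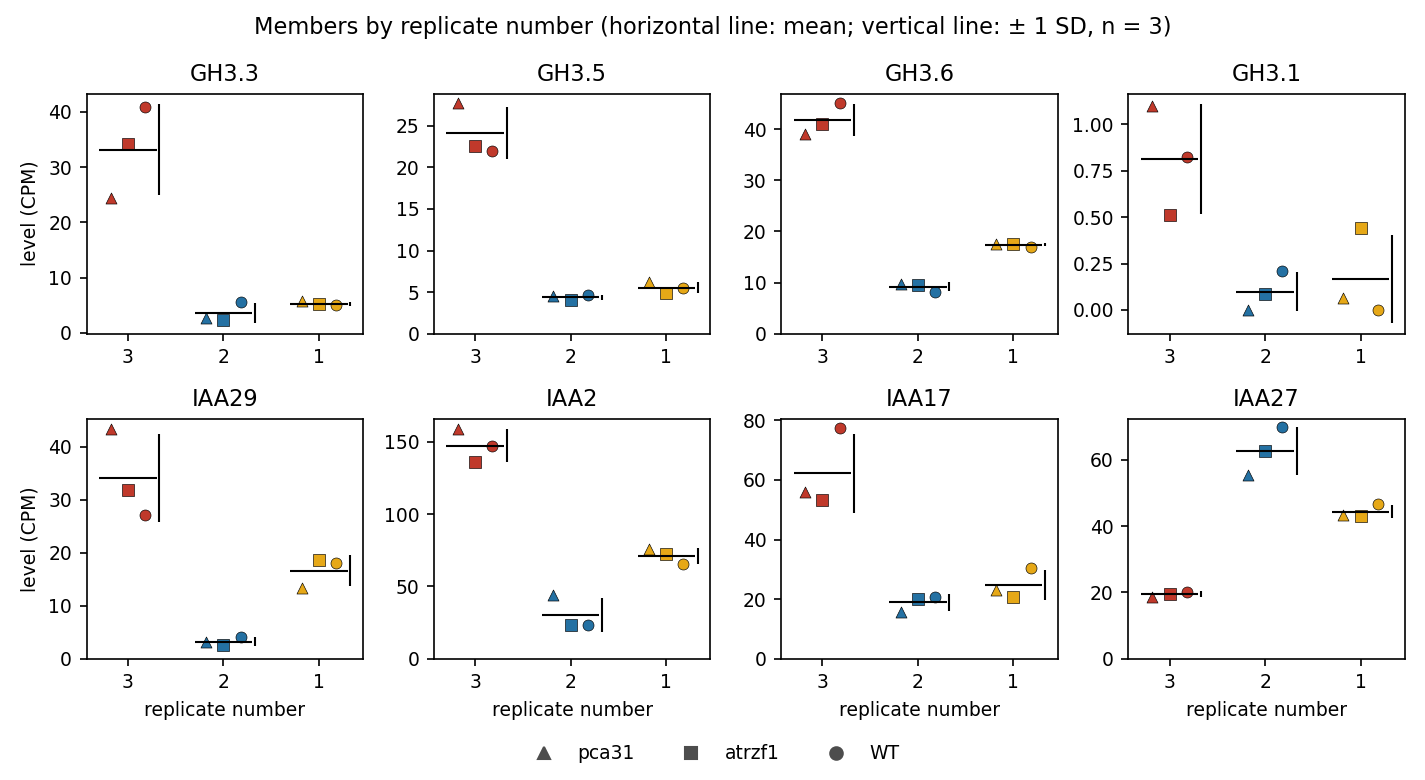
Level in CPM of 8 members by replicate number, with markers for pca31, atrzf1 and WT, a horizontal line at the mean of 3 libraries and a vertical line of 1 SD either way. GH3.3 reaches 24.4 to 40.8 CPM in number 3 and at most 5.7 CPM elsewhere, whereas IAA27 is lowest in number 3 at 18.5 to 20.2 CPM.

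In number 2, 5 repressors and GH3.6 were lower than in number 1 and 3 repressors were higher. edgeR thus called 9 of 29 members (31%), 3 higher and 6 lower, beside 22% of all genes (9.87% higher and 12.1% lower). IAA29 fell by 2.36 ± 0.26 and IAA1 by 2.12 ± 0.22 on the log2 scale (edgeR adjusted p = 0.00015 and 0.000127). IAA1 had 9.28, 5.35 and 4.62 CPM in the number 2 libraries of pca31, atrzf1 and WT, against 26.8, 28.8 and 25.3 CPM in number 1. All 3 genotypes showed this gap without overlap. IAA6 (SHY1) fell by 1.79 ± 0.37, IAA2 by 1.27 ± 0.19, GH3.6 by 0.92 ± 0.16 and IAA3 by 0.85 ± 0.22 on the log2 scale (edgeR adjusted p between 0.00103 and 0.0199), of which IAA3 kept its call in 4 of the 9 fits that leave out a library. IAA28, a repressor of lateral root formation, had 44.5, 33.7 and 29.6 CPM in the number 2 libraries of pca31, atrzf1 and WT, against 16.9, 16.6 and 20 CPM in number 1. It was higher in number 2 by 0.99 ± 0.19 on the log2 scale (edgeR adjusted p = 0.00455), followed by IAA27 at 0.50 ± 0.15 and IAA13 at 0.47 ± 0.15 (edgeR adjusted p = 0.032 and 0.0438). In the fits that leave out a library IAA27 kept this call in 3 of 9 and IAA13 in 2 of 9. Groups did not overlap for 18 of 29 members (62.1%), 7 higher and 11 lower, beside 38.1% of all genes (17.7% higher and 20.4% lower).

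Taking number 3 against each other number separates the members that differed from both. Against number 1 alone 9 members were called, 8 higher and 1 lower (31%, beside 32.9% of all genes, 15.6% higher and 17.3% lower), and against number 2 alone 16, of which 12 were higher and 4 lower (55.2%, beside 49.2% of all genes, 25.8% higher and 23.4% lower). Called the same way in both were 7 members (24.1%, beside 25.3% of all genes, 12.2% higher and 13% lower): GH3.3, GH3.5, GH3.6, IAA2, IAA17 and IAA29 were higher and IAA27 lower. The log2 fold changes of GH3.3 were 2.60 ± 0.26 against number 1 and 3.25 ± 0.27 against number 2 (edgeR adjusted p = 2.21e-05 and 3.46e-06). Those of IAA27 were -1.19 ± 0.15 and -1.68 ± 0.15 (edgeR adjusted p = 0.000121 and 6.08e-06). These 2 contrasts share the number 3 libraries, so they are not independent of each other.

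**Figure D4:**
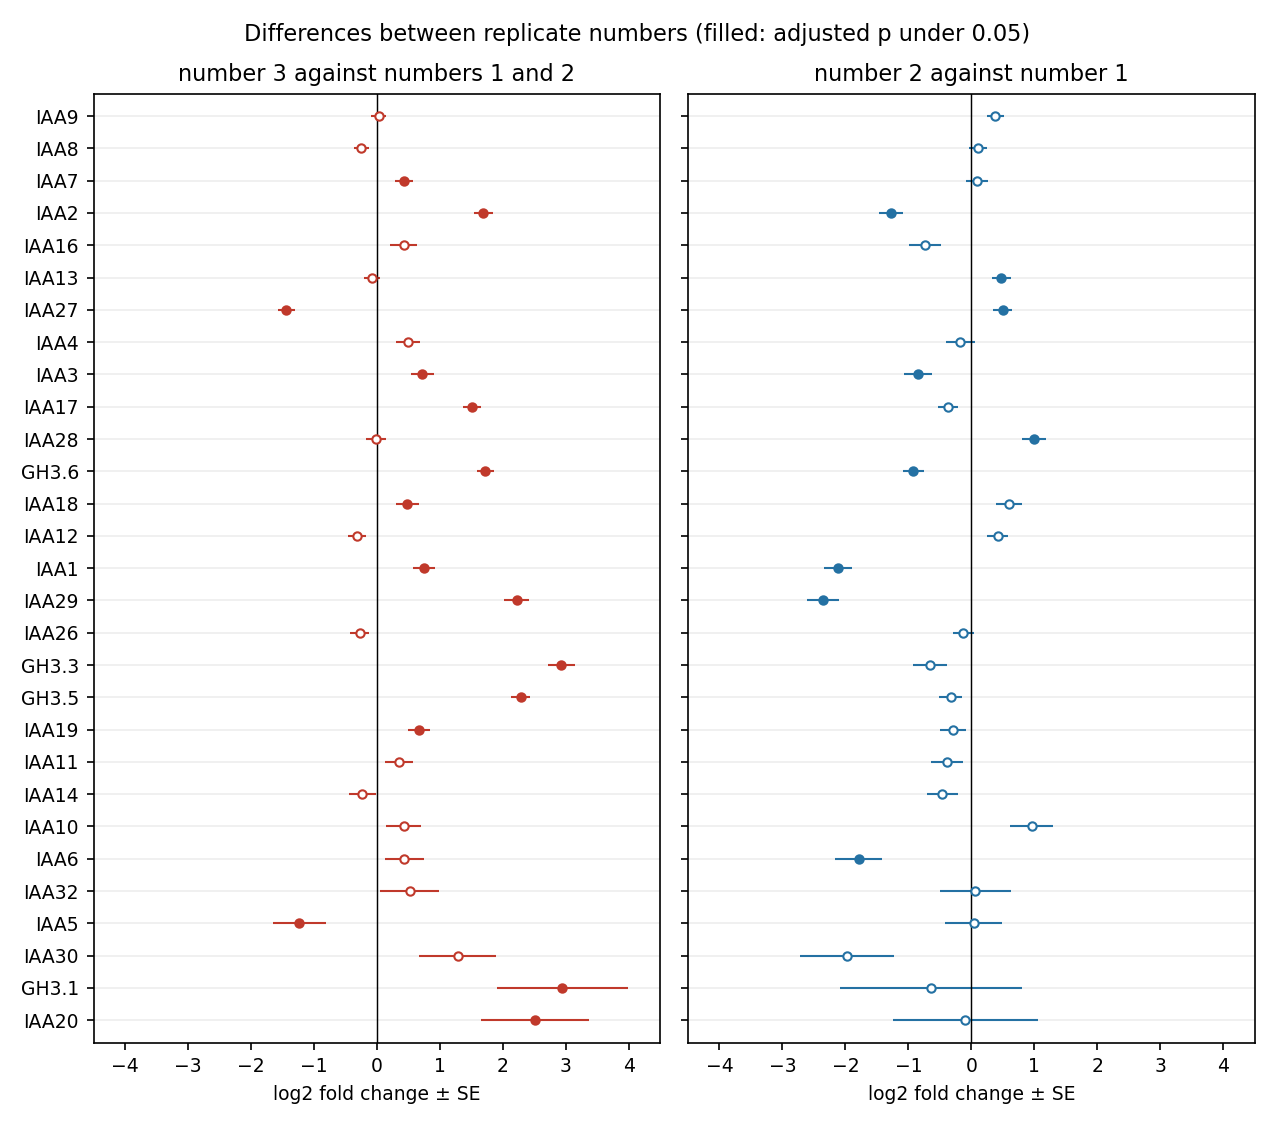
Log2 fold change with its standard error of the 29 tested members in number 3 against numbers 1 and 2 and in number 2 against number 1, ordered by mean level. Filled points passed the threshold, 15 members in the first panel and 9 in the second, with GH3.1, GH3.3 and IAA20 above 2.5 in number 3 and IAA1 and IAA29 below -2 in number 2. IAA20 passed the filter on low counts through number 3 alone, and GH3.1 mainly so.

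The promoter words shown above were read against these calls. Of the tested members, 5 of the 13 higher in number 3 (38.5%) and 9 of the 16 other tested members (56.2%) held TGTCTC or TGTCGG within 250 bases of the start. The 5 include IAA20, which passed the filter on low counts through number 3 alone. Among the GH3 genes, GH3.3 and GH3.5 held TGTCTC and GH3.6 and GH3.1 did not. All 4 were higher in number 3 against numbers 1 and 2. Members that neighbour each other lie in pairs on opposite strands. IAA3 and IAA17 are 6388 bases apart on chromosome 1 and were higher in number 3 by 0.72 ± 0.19 and 1.51 ± 0.14 on the log2 scale. IAA1 and IAA14 lie 10732 bases apart on chromosome 4. They differed by 0.75 ± 0.18 and -0.23 ± 0.22 in number 3 against numbers 1 and 2, of which IAA14's was not called. Both averaged lower in number 3 than in number 1, at 22.2 against 27 CPM for IAA1 and 3.94 against 5.43 CPM for IAA14. IAA2 and IAA7 lie 12510 bases apart on chromosome 3 and differed by 1.69 ± 0.15 and 0.43 ± 0.14 in number 3.

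Genes that act around the repressors were read from lists of 74 genes, 64 of them tested. No gene of these lists was called between genotypes, and the most abundant gene of each list, AFB5, ARF2, TPR4, YUC2, PIN3, GH3.17 and SAUR16, had log2 fold changes of -0.36 to 0.41 in pca31 against WT, -0.28 to 0.21 in pca31 against atrzf1 and -0.38 to 0.70 in atrzf1 against WT, with an edgeR adjusted p of 1 throughout. In number 3 against numbers 1 and 2, 21 were higher and 10 lower (48.4%, beside the 45.7% of all genes given above). Of the 6 receptors AFB1 rose by 0.75 ± 0.17, while TIR1 fell by 0.59 ± 0.15 and AFB5 by 0.61 ± 0.12 on the log2 scale. Of the 15 response factors 4 were higher, namely ARF11 (1.62 ± 0.20), ARF1 (0.85 ± 0.14), ARF2 (0.78 ± 0.14) and ARF10 (0.60 ± 0.19). Among the activating factors, ARF6 (-0.88 ± 0.15), ARF7 (-0.69 ± 0.14) and ARF8 (-0.86 ± 0.17) were lower, as were ARF3 (-0.56 ± 0.15) and ARF17 (-0.60 ± 0.22). The activating factors ARF5 and ARF19 were not called and did not fall. ARF5 averaged 6.53 CPM in number 3, 5.13 CPM in number 2 and 6.14 CPM in number 1. For ARF19 these means were 4.48, 2.13 and 3.89 CPM. Of the 5 TOPLESS co-repressors TPR2 (0.79 ± 0.18) and TPR3 (1.01 ± 0.28) were higher.

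Genes of auxin synthesis and transport differed as well. Of the 9 tested synthesis genes YUC8 (3.07 ± 0.51), YUC2 (2.48 ± 0.35) and YUC3 (2.14 ± 0.64), flavin monooxygenases of the last step to auxin, were higher in number 3. Of the 14 tested carriers PIN2 (5.48 ± 0.60), an exporter of root tips, ABCB4 (1.93 ± 0.22) and PIN3 (1.17 ± 0.12) were higher, and PIN5 (-2.39 ± 0.59) and LAX2 (-0.54 ± 0.16) lower. The conjugating enzymes GH3.17 (3.22 ± 0.21) and GH3.2 (2.34 ± 0.31) rose like the 4 GH3 members, and AT1G14130 of the same list rose by 0.73 ± 0.22. GH3.9, also tested in that list, was not called in this contrast and went the other way. It averaged 0.116 CPM in number 3, 0.202 CPM in number 2 and 0.794 CPM in number 1. LBD16, a gene of lateral root initiation, had 2.22 to 3.46 CPM in number 3, 0 CPM in the 3 number 2 libraries and 0 to 0.213 CPM in number 1, and passed the test (edgeR adjusted p = 7.86e-05). LBD16 and PIN2 had at most 6 and 9 counts in any library outside number 3, so they passed the filter through number 3 alone. SAUR19 (1.1 ± 0.20), SAUR20 (0.60 ± 0.16), SAUR21 (0.65 ± 0.18) and SAUR22 (0.91 ± 0.19) were higher and SAUR9 (-1.67 ± 0.59) lower. The edgeR adjusted p of all these calls lay below the threshold of 0.05. The root marker sums given above, 1620 to 2360 CPM in number 3 and 35.5 to 171 CPM elsewhere, were higher like most of these genes. PIN5, LAX2 and SAUR9 were lower, as were 8 of 9 leaf markers and 6 of 7 floral markers. The part of these markers in the differences was not tested.

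In number 2 against number 1 the same lists had 6 higher and 11 lower genes (26.6%, beside the 22% of all genes). TIR1 (0.84 ± 0.17), AFB2 (0.68 ± 0.18) and AFB5 (0.54 ± 0.14) were higher, as were the carriers PIN4 (0.93 ± 0.16), AUX1 (0.68 ± 0.17) and LAX1 (0.52 ± 0.17). ARF2 (-0.64 ± 0.17), ARF11 (-1.26 ± 0.25), ARF19 (-0.90 ± 0.30), YUC8 (-2.93 ± 0.71) and ABCB19 (-0.75 ± 0.16) were lower. So were SAUR15 (-1.26 ± 0.33), SAUR20 (-1.15 ± 0.19), SAUR21 (-1.26 ± 0.22), SAUR22 (-1.99 ± 0.23), SAUR23 (-1.51 ± 0.31) and SAUR24 (-1.39 ± 0.28), all past the threshold in edgeR. SAUR19 to SAUR24 are closely related copies that share stretches of 26 bases or more, so their counts are uncertain gene by gene. No gene was called among the TOPLESS co-repressors, where TPR4 differed by -0.24 ± 0.17, or among the other conjugating enzymes, where GH3.17 differed by -0.39 ± 0.28.

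The number 3 calls differed in how much they rested on single libraries. GH3.3, GH3.5, GH3.6, IAA2, IAA17, IAA27 and IAA29, 7 of the 15, were called under every alternative run. Without the WT library of number 3, 9 of 31 members were called, beside 6856 of 21049 genes. Without that of atrzf1 it was 8 of 30 members, beside 6608 of 21075 genes. In number 2 against number 1, GH3.6, IAA1, IAA2, IAA6, IAA28 and IAA29, 6 of the 9, were called under every alternative in which they were tested. Scaling by library totals alone gave a median log2 fold change of all genes in number 3 of 0.39, beside 0.03 with scaling factors. Called were then 20 of the 29 members, 19 higher and 1 lower, beside 10570 of 20672 genes, 8042 higher and 2528 lower. Relative to that median, GH3.3, GH3.5, GH3.6, IAA2, IAA17 and IAA29 stood higher and IAA27 lower under both scalings.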

How the data were processed

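Lexogen QuantSeq libraries, which read the 3' end of transcripts from 500 ng of total RNA, were made from 9 seedling samples. Per the submitters' processing notes, Bowtie2, bedtools and the TAIR10 genome were used. Their versions, the strand setting and the annotation are not stated there or in the labels. The authors deposited raw counts per gene, whole numbers that sum differently in each library. No row lacked a gene identifier, and 0 columns of other samples were left out.

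Genes were kept with edgeR 4.0.16 filterByExpr (minimum count 10, minimum total 15; 20672 genes), scaled by TMM and tested with the quasi-likelihood F test in R 4.3.3, with Benjamini-Hochberg adjustment over all genes and a threshold of 0.05. The genotype fit held genotype alone with 6 residual degrees of freedom, and contrasts of replicate numbers came from a fit of genotype and number with 4. Intervals are at 95% and cover the spread between samples. Floors of 3 counts for a count of 0 cover counting error only. Same-numbered libraries deviated together from their genotype means (correlations of 0.585 to 0.849, n = 9 pairs of libraries), so the numbers pair the libraries, a reading from the data, since the labels do not say what a number marks. No pair of libraries of the same genotype agreed within sampling noise, with chi-square over degrees of freedom of at least 161.5 over the 9 such pairs.

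Alternatives were RLE scaling, library totals, no filter on low counts, a mean of 5 CPM, DESeq2 1.42.0, limma-voom (limma 3.58.1), a replicate block, no genotype term and each library left out in turn. Number 3 against number 1 and against number 2, and the counts of groups that do not overlap or keep a direction, were chosen after seeing the data. The fits were tested on simulated data. The members and gene lists were chosen with earlier results of these data known. All 33 members are named. Of the other auxin lists every gene called is named, at most 6 per direction, or the most abundant gene where none was called. GH3.9, ARF5 and ARF19 are also named in number 3, beside calls of genes of their kind. RefSeq's TAIR10.1 gave the sequences, and 32835 of 33323 identifiers matched one of its locus tags.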

Additional observations from a re-analysis of the deposited data

How the results depend on the processing

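No member was called between genotypes under any setting run. The count of all genes called depended on the setting. In pca31 against WT, where the fit on genotype alone called 1 gene, it was 9 with the replicate block, 5 with DESeq2, 116 with DESeq2 and the block, 6 with the block and library 2 of pca31 left out (a library that earlier results had set apart), and 0 to 1 with a library left out. In pca31 against atrzf1 (1 gene) it was 2 with DESeq2 and the block, 3 with the block and that library left out, and 0 to 1 with a library left out. In atrzf1 against WT (0 genes) it was 7 with the block, 4 with DESeq2, 47 with DESeq2 and the block, and 3 with the block and that library left out. For any difference (1 gene) it was 8 with the block, 3 with DESeq2, 67 with DESeq2 and the block, 5 with the block and that library left out, and 0 to 1 with a library left out. The block turned the sign of 10 uncalled log2 fold changes. In pca31 against WT these became 0.0192 for GH3.6, 0.0223 for IAA18, -0.0164 for IAA29 and -0.384 for GH3.1. In pca31 against atrzf1 they became -0.997 for GH3.1 and -0.0468 for IAA17. In atrzf1 against WT they became 0.0336 for GH3.6, 0.00718 for IAA2, 0.183 for IAA20 and -0.0997 for IAA29. The cause was not tested. Leaving out a library gave 8 to 16 called members in number 3 against numbers 1 and 2 (15 with all libraries). All genes called there ranged from 6608 to 10215 (9437). In number 2 against number 1 it gave 6 to 11 called members (9), where all genes called ranged from 1839 to 6259 (4538). The lowest were 2302 without library 1 of WT, 2053 without library 2 of WT, 1855 without library 1 of atrzf1 and 1839 without library 2 of atrzf1, and these fits have fewer samples. Of the called members' values, 160 kept their call with a library left out and 56 lost it with the same sign. GH3.1, IAA5, IAA7, IAA18 and IAA20 in number 3, and IAA3, IAA13 and IAA27 in number 2, lost it in most of these fits. Under other settings IAA5 lost its call in number 3 with library totals (-0.87) and IAA20 without the filter, and IAA13 and IAA27 lost theirs in number 2 with library totals. Library totals moved the median of all genes by over 0.1 on the log2 scale in pca31 against WT (0.20) and pca31 against atrzf1 (0.15). With 3 libraries a group whose numbers differ this much, genotype differences near the standard errors given could not be seen. Larger ones could also go uncalled, as those of IAA19 and IAA26 did with the block. GH3.1, IAA15, IAA20, IAA30, IAA31, IAA33 and IAA34 are limited by low counts.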

Other observations

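Summed over the family, the Aux/IAA transcripts changed less between libraries than the single members that changed several-fold. The 29 Aux/IAA genes summed to 1226, 1215 and 1239 CPM in the number 3 libraries of pca31, atrzf1 and WT, to 1167, 1067 and 944.8 CPM in number 2, and to 1020, 1049 and 992.8 CPM in number 1. Each number 3 sum lay above every sum of numbers 1 and 2. IAA9 and IAA8, with means of 308 and 193 CPM over the 9 libraries, make up much of these sums and were not called in number 3 against numbers 1 and 2. The 4 GH3 genes summed to 92.22, 98.2 and 108.8 CPM in the number 3 libraries of pca31, atrzf1 and WT, to 16.99, 16.12 and 18.64 CPM in number 2, and to 29.59, 28.14 and 27.51 CPM in number 1. These sums were not tested.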
